A study of Mus musculus with 8 samples.

Results

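The Hox genes described here are the 39 genes of the deposited tables whose symbol is Hoxa, Hoxb, Hoxc or Hoxd followed only by a number. They fill 40 of the 22056 gene entries, because Hoxd4 is listed under 2 identifiers. Hoxa holds 11 of the entries, Hoxb 10, Hoxc 9 and Hoxd 10. All 8 libraries were single-cell RNA libraries made with 10x Genomics 3′ chemistry from allografts of N2N1G, a mouse small cell lung cancer line. The cells had been grown in culture, and 1000000 of them were placed in a mouse for each graft. After 3 weeks the grafts were taken out and living single cells were sorted. The brain group has 2 libraries, from direct injection into the brain. The liver group has 3 libraries, from cells given through the tail vein, and the subcutaneous group has 3, from direct injection under the skin of the flank. All grafts come from this 1 line, and the liver site cannot be told apart from its route. The labels do not say which libraries came from separate animals, so p-values measure the spread between these samples, which may be technical.

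Hox genes encode homeodomain transcription factors that set position along the head-to-tail axis of the embryo. They lie in clusters, and their order along the chromosome matches the order in which they are switched on: low paralogue numbers act early and towards the head, high numbers late and towards the tail. Cells of an adult organ often keep a Hox pattern that reflects where they arose, and the lung expresses mainly anterior and central genes of the Hoxa and Hoxb clusters. Hox proteins bind DNA together with TALE cofactors of the Pbx, Meis and Pknox families, and Polycomb complexes keep silent Hox clusters closed.

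Tumour cells were the cells in which transcripts of eGFP, a green fluorescent protein, and of Mycl, which encodes L-Myc, made up at least 0.2% of unique molecular identifiers (UMIs, each a captured transcript). The rule kept 34719 tumour cells of 36797 that passed quality filters, between 2418 and 6276 per library, with 21689091 to 62047017 UMIs per library and a median of 7972 to 10542 UMIs per cell. As a check of the label, 7 neuroendocrine and epithelial markers that the rule did not use (Chga, Insm1, Uchl1, Syp, Calca, Ncam1 and Epcam) summed to 2303 to 3320.4 CPM (UMIs per 1000000 UMIs of the same cells) in tumour cells, with none at 0. In the cells below the rule they summed to 195 and 317 CPM in brain and 518 CPM in subcutaneous library 1. In liver and in subcutaneous libraries 2 and 3 those cells stood at 1847 to 2673 CPM, against 2566 to 3320.4 CPM in tumour cells. There the markers separated the 2 kinds of cell little, and 56.0% to 81.5% of the cells below the rule held an eGFP UMI. Between 51 and 958 cells per library fell below the rule, of which 11 to 49 held 0.15% to 0.2%, while 21 to 62 tumour cells held 0.2% to 0.25%. Any pair of libraries shared 20 to 56 cell barcodes. Levels are CPM of the UMIs summed over the tumour cells of a library. With 3′ counting a transcript gives 1 UMI whatever its length, so levels of different genes were compared without scaling to length. In such sums, fewer expressing cells and less RNA per cell cannot be told apart.

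Tumour cells at every site expressed the Hoxb cluster from Hoxb2 to Hoxb9 and a smaller amount of Hoxd8 to Hoxd11, and held almost no Hoxa or Hoxc RNA. These 12 genes were the only Hox genes with a mean of at least 1 CPM in any site. Hoxa and Hoxc together gave 15 UMIs among 359599657, 8 from 6 Hoxa genes and 7 from 3 Hoxc genes. No UMI at all came from 12 entries, namely Hoxa3, Hoxa5, Hoxa6, Hoxa11, Hoxa13, Hoxc4, Hoxc5, Hoxc6, Hoxc10, Hoxc11, Hoxc12 and Hoxd12. A count of 0 (a limit of 3 UMIs over all libraries) allows these genes at most 0.00834 CPM. At the ends of the expressed stretches, Hoxb1 gave 63 UMIs, Hoxb13 gave 1 and Hoxd1 gave 108, while Hoxd3, Hoxd4, Hoxd12 and Hoxd13 gave 33 together.

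The Hoxb genes lie on chromosome 11 of the GRCm38 build, from Hoxb9 at chr11:96271457-96276595 to Hoxb2 at chr11:96350525-96354012 and beyond. Hoxb2, an anterior gene of hindbrain patterning, stood at 29.05 and 26.998 CPM in the brain libraries, at 42.6, 42.0 and 38.9 CPM in the liver libraries, and at 48.2, 59.3 and 60.3 CPM in the subcutaneous libraries. The 3 sites did not overlap for this gene. Hoxb3 was the lowest of the 8, at 7.42 and 6.69 CPM in brain, 10.6, 9.70 and 7.38 CPM in liver, and 10.3, 10.0 and 9.98 CPM in subcutaneous tissue. Hoxb4, known from blood stem cells, was at 32.8 and 39.1 CPM in brain, 50.9, 49.2 and 53.1 CPM in liver, and 46.8, 56.3 and 59.8 CPM in subcutaneous tissue. Both brain libraries lay under the other 6 for Hoxb4. Hoxb5, which is active in the developing lung, was at 41.9 and 44.7 CPM in brain, 45.8, 45.2 and 44.96 CPM in liver, and 51.0, 47.0 and 51.2 CPM in subcutaneous tissue. Its libraries lay within a narrow range.

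Hoxb6, a central gene of the cluster, was at 89.3 and 89.4 CPM in brain, 84.4, 92.4 and 99.03 CPM in liver, and 113, 122 and 126 CPM in subcutaneous tissue. The subcutaneous libraries were the highest and the other sites overlapped. Hoxb7 was at 55.9 and 59.8 CPM in brain, 79.2, 85.9 and 85.4 CPM in liver, and 71.7, 90.1 and 94.0 CPM in subcutaneous tissue. Hoxb8, which patterns the trunk, was at 83.7 and 73.2 CPM in brain, 85.0, 81.2 and 86.4 CPM in liver, and 95.9, 86.4 and 92.8 CPM in subcutaneous tissue. Brain was lowest for Hoxb7 without overlap, while brain and liver overlapped for Hoxb8. Hoxb9, the posterior end of the expressed Hoxb stretch, was at 79.1 and 70.7 CPM in brain, 154.7, 125.7 and 136.1 CPM in liver, and 132.6, 179.8 and 168.9 CPM in subcutaneous tissue. It was the most abundant Hox gene over all libraries, at rank 1232 of the 22056 entries by mean level, followed by Hoxb6 at rank 1591, Hoxb8 at 1871 and Hoxb7 at 2050. Hoxb3, between 2 genes at ranks 3156 and 3459, ranked 8248.

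The expressed Hoxd genes lie side by side on chromosome 2, Hoxd11 at chr2:74679557-74687016, Hoxd10 at chr2:74691924-74695105, Hoxd9 at chr2:74697727-74700208 and Hoxd8 at chr2:74704615-74707933, all on the + strand. They act in the posterior trunk and, for Hoxd9 to Hoxd11, in the limb. The next gene on one side, Hoxd12, had no UMI, and Hoxd4 and Hoxd3 on the other side had 9 and 20 UMIs. In the annotation no exon of Hoxd8 to Hoxd11 or of the Hoxb genes overlaps another Hox gene on the same strand. Hoxd3 and Hoxd4 share exons there, though not in the last 300 exon bases of either gene. The second Hoxd4 identifier is not in that annotation, so its overlap could not be checked and the few UMIs cannot be assigned with certainty. A promoter sequence (300 bases that end shortly after a start site) was at hand from RefSeq for 22 of the 39 genes, on build GRCm38.p6. The start regions of the 4 neighbours that moved together, of the silent Hoxd12 beside them and of Hoxb8, as a Hoxb gene whose level was near equal in all sites, are given from 5′ to 3′. Hoxd11 is listed with 2 starts. The window inside the gene is shown, and that at the annotated gene start (chr2:74679308-74679607) holds a TAATTA, neither of the other motifs and 4 CG dinucleotides. Capitals mark TGATNNAT, the kind of site bound by Hox and Pbx together, TAATTA, a homeodomain core, and CACGTG, an E-box of the kind that Myc proteins bind, each on either strand.
Hoxd12 promoter at chr2:74674763-74675062, + strand: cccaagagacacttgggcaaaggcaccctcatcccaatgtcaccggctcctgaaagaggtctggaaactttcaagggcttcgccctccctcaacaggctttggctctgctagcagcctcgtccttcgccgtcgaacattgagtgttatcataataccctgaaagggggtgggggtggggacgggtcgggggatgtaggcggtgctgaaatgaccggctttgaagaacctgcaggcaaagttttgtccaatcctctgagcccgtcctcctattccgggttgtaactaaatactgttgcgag
Hoxd11 promoter at chr2:74682073-74682372, + strand: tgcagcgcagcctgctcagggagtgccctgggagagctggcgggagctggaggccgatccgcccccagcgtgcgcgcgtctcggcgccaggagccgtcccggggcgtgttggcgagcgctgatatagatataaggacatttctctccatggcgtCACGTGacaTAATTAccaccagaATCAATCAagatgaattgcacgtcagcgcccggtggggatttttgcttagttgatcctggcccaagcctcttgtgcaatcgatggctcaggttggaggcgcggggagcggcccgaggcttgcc
Hoxd10 promoter at chr2:74691641-74691940, + strand: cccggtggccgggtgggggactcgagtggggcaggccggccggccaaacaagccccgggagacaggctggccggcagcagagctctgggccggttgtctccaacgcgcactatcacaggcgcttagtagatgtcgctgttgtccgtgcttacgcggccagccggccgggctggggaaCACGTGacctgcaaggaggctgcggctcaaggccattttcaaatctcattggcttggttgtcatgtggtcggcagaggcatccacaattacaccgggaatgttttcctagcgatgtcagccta
Hoxd9 promoter at chr2:74697513-74697812, + strand: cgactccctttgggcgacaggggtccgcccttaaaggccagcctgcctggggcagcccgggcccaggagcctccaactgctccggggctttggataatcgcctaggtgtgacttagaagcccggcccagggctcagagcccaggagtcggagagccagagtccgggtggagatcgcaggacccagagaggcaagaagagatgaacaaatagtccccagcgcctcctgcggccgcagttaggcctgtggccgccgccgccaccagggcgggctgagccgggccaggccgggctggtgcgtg
Hoxd8 promoter at chr2:74704365-74704664, + strand: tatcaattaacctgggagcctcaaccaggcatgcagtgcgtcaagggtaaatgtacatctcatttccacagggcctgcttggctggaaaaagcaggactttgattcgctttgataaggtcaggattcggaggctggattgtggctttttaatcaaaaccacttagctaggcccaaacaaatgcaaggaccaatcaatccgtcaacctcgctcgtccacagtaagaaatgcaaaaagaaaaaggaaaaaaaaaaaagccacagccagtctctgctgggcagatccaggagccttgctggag
Hoxb8 promoter at chr11:96281655-96281954, + strand: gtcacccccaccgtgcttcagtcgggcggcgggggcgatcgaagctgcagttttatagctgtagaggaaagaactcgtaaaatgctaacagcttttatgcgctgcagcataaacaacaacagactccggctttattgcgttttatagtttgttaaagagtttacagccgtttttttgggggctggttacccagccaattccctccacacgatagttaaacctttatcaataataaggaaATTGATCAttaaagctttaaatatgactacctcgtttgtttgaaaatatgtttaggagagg
The Hoxd11 window holds 1 match to each of the 3 motifs, the Hoxd10 window a CACGTG and the Hoxb8 window a TGATNNAT, and the windows of Hoxd8, Hoxd9 and Hoxd12 hold none of them. Among all 32851 promoters of the same length, 8.85% hold TGATNNAT, 5.29% TAATTA and 7.15% CACGTG. These matches are descriptions of letters, not binding sites. The CG dinucleotide count was 25 in the Hoxd11 window shown, 22 in Hoxd10, 20 in Hoxd9, 13 in Hoxd12, 13 in Hoxb8 and 6 in Hoxd8, against quartiles of 3, 7 and 20 over all promoters.

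Hoxd8 to Hoxd11 had 1 shared pattern: high in both brain libraries, intermediate in subcutaneous library 1 and low in the other 5. Hoxd8 was at 27.5 and 25.3 CPM in brain, 2.43, 1.61 and 1.55 CPM in liver, and 9.69, 1.56 and 1.33 CPM in subcutaneous tissue. Hoxd9 was at 24.3 and 23.9 CPM in brain, 1.44, 1.02 and 0.885 CPM in liver, and 7.03, 1.77 and 2.06 CPM in subcutaneous tissue. Both genes were low but present in liver. Hoxd10 was at 16.2 and 18.1 CPM in brain, 1.64, 1.21 and 0.928 CPM in liver, and 6.43, 1.11 and 1.37 CPM in subcutaneous tissue. Hoxd11 was at 24.4 and 29.7 CPM in brain, 2.13, 1.44 and 1.21 CPM in liver, and 12.2, 2.45 and 1.91 CPM in subcutaneous tissue. For all 4 genes the brain libraries lay above the other 6 without overlap. How many of all genes separate the sites in this way was not counted, here or for the Hoxb genes. Hoxd1, the anterior end of the cluster, was far lower and ordered otherwise, at 0.369 and 0.672 CPM in brain, 0.121, 0.021 and 0.108 CPM in liver, and 0.456, 0.371 and 0.385 CPM in subcutaneous tissue.

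**Figure D1:**
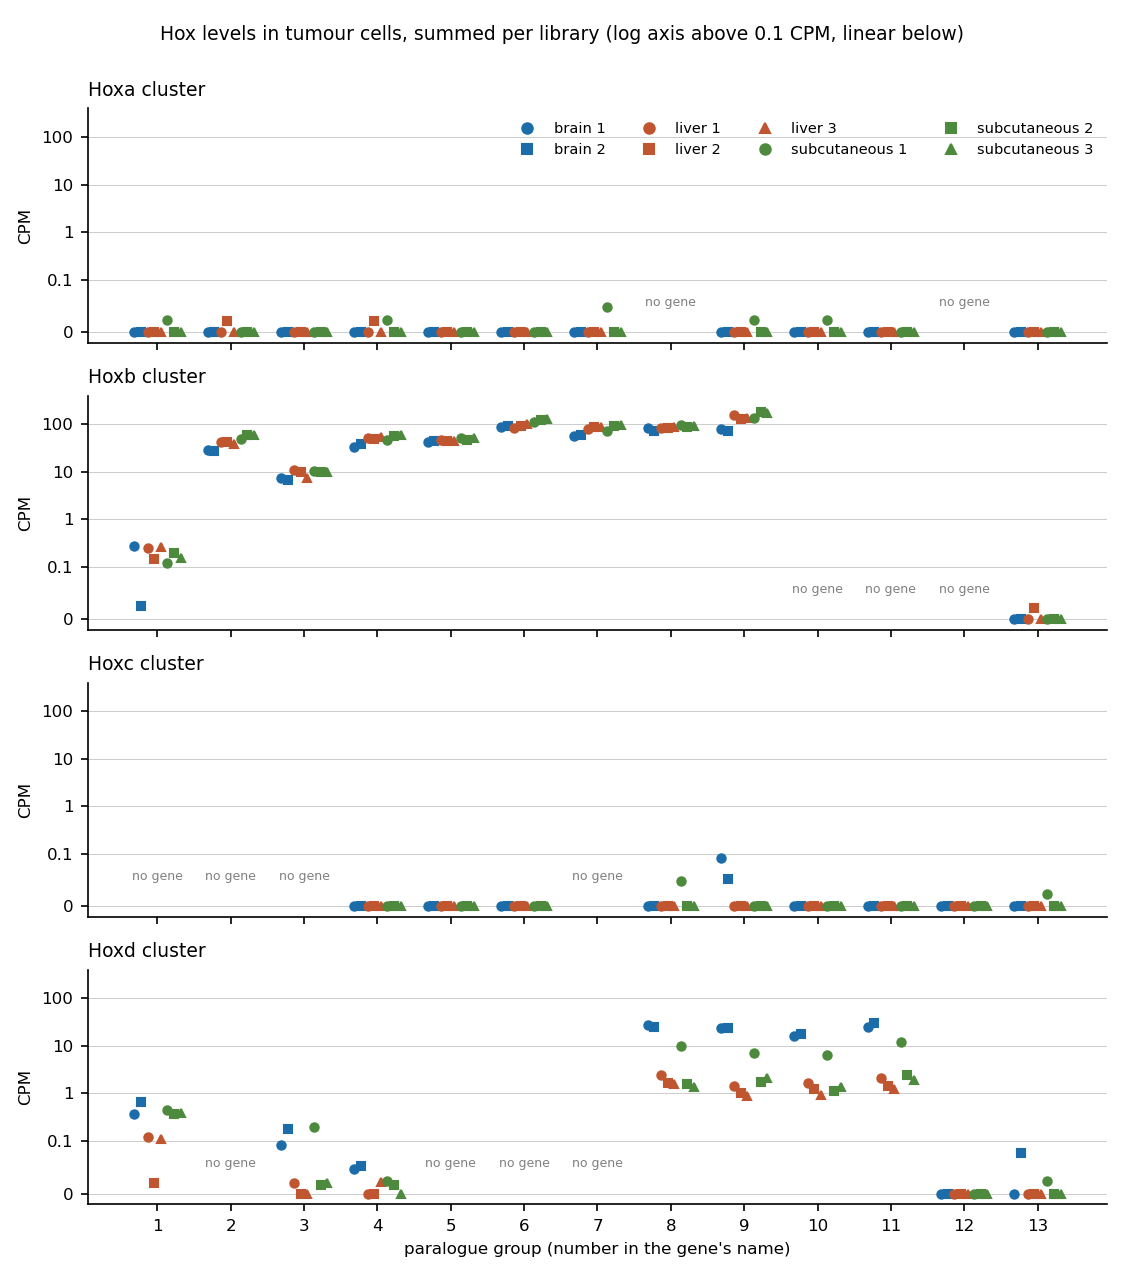
Level of every Hox gene in tumour cells by paralogue number, 1 panel per cluster, in CPM on an axis that is logarithmic above 0.1 CPM and linear below, with 1 point per library coloured by site. Hoxb2 to Hoxb9 are present at all sites, with Hoxb9 the highest of them in liver and subcutaneous libraries but not in brain, Hoxd8 to Hoxd11 stand at 16.2 to 29.7 CPM in brain and at 0.885 to 12.2 CPM elsewhere, and Hoxa and Hoxc lie at or near 0.

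Tumour cells in brain held more Hoxd RNA and less Hoxb RNA than tumour cells in liver, the comparison that asks how the same line differs between these sites. Of the 14 Hox genes with enough UMIs to be tested (Hoxb1 to Hoxb9, Hoxd1 and Hoxd8 to Hoxd11), 9 passed an adjusted p of 0.05, where 21.8% of all 13931 tested genes did. The 5 Hoxd genes were higher in brain and Hoxb2, Hoxb4, Hoxb7 and Hoxb9 were lower. Higher calls made up 13.2% and lower calls 8.56% of all tested genes. The tested Hoxd genes had a median log2 fold change of 3.70 and the tested Hoxb genes of -0.62, beside 0.00 over all genes.

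In edgeR's quasi-likelihood test with Benjamini-Hochberg adjustment, Hoxd9 rose most, with a log2 fold change of 4.31 (SE 0.58, adjusted p = 0.00278). Hoxd11 followed at 3.97 (SE 0.77, adjusted p = 0.0121), Hoxd8 at 3.70 (SE 0.82, adjusted p = 0.0188) and Hoxd10 at 3.65 (SE 0.71, adjusted p = 0.0113). Hoxd1 was higher by 2.52 (SE 0.61, adjusted p = 0.0193) on few UMIs. On the Hoxb side, Hoxb9 fell by 1.01 (SE 0.15, adjusted p = 0.00313), Hoxb2 by 0.67 (SE 0.13, adjusted p = 0.00729), Hoxb7 by 0.64 (SE 0.13, adjusted p = 0.00853) and Hoxb4 by 0.62 (SE 0.13, adjusted p = 0.0111). The other Hoxb genes did not pass: the log2 differences were -0.51 for Hoxb3 (adjusted p = 0.0700), -0.22 for Hoxb8, -0.18 for Hoxb5, -0.15 for Hoxb6 and -0.83 for Hoxb1. The calls of Hoxd9, Hoxd10, Hoxd11 and Hoxb9 were made without any 1 library. Without brain library 1, the calls of Hoxb2, Hoxb4 and Hoxb7 were lost. Without brain library 2, those of Hoxb2, Hoxb7 and Hoxd1 were lost. In these 2 fits the lone brain library is assumed to vary like the other groups. Hoxd8 was lost without any 1 of the liver libraries, and Hoxd1 also without liver library 2. The highest adjusted p over these fits and the other settings tried on all tumour cells or on another tumour rule, 18 in all, was 0.0655 for Hoxd8, 0.161 for Hoxd1, 0.0918 for Hoxb7, 0.116 for Hoxb4 and 0.0706 for Hoxb2. In divisions of the cells added after these data were seen, described further on, Hoxb2, Hoxb4, Hoxb7 and Hoxd1 were also lost. Hoxd8 and Hoxd11 were lost in the division that did not leave out cells with their UMIs.

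Against subcutaneous grafts, tumour cells in brain again held less of several Hoxb genes, and 2 Hoxd genes were called. Of the 14 tested Hox genes 7 passed, 2 higher and 5 lower, where 15.1% of all tested genes passed, 8.94% higher and 6.13% lower. The brain libraries enter both comparisons, so these are not independent of the values against liver. Hoxd9 rose by 2.75 on the log2 scale (SE 0.53, adjusted p = 0.0159) and Hoxd10 by 2.56 (SE 0.68, adjusted p = 0.0424). Hoxb9 fell by 1.102 (SE 0.15, adjusted p = 0.00375), Hoxb2 by 1.00 (SE 0.13, adjusted p = 0.00264), Hoxb4 by 0.59 (SE 0.13, adjusted p = 0.0192), Hoxb7 by 0.56 (SE 0.12, adjusted p = 0.0204) and Hoxb6 by 0.43 (SE 0.09, adjusted p = 0.0189). Hoxd8 at 2.68 (adjusted p = 0.0594), Hoxd11 at 2.31 (adjusted p = 0.0713) and Hoxd1 at 0.40 did not pass. Neither did Hoxb3 at -0.52, Hoxb8 at -0.23, Hoxb5 at -0.20 and Hoxb1 at -0.27.

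Subcutaneous library 1 weighs on the Hoxd values of this comparison: without it all of Hoxd8 to Hoxd11 were called. The count of calls over all genes also moved widely when 1 library was left out, given further on as a range over such fits. Whether the added Hoxd calls went with a general rise in calls was not tested. Hoxb2 and Hoxb9 were called without any 1 library. No other Hox call was left without brain library 1 or without brain library 2. Without subcutaneous library 2 or 3 the only other Hox call left was Hoxd9. Hoxd10 was lost without liver library 1, 2 or 3. In a fit of only these 2 sites both Hoxd calls were lost, and Hoxb2, Hoxb6 and Hoxb9 were called.

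Between liver and subcutaneous grafts no Hox gene was called, where 2.83% of all tested genes were, 0.933% higher and 1.9% lower in liver. In edgeR 4 of the 14 had an unadjusted p below 0.05, and DESeq2 called 2, Hoxd9 (log2 fold change -1.56, adjusted p = 0.0123) and Hoxb6 (-0.27, adjusted p = 0.0429). Hoxb2, Hoxb5, Hoxb6, Hoxd1 and Hoxd9 had lower CPM in all 3 liver libraries than in all 3 subcutaneous libraries. The share of all genes so separated was not counted. In edgeR the log2 differences were -0.33 for Hoxb2 (adjusted p = 0.155), -0.28 for Hoxb6 (adjusted p = 0.114) and -0.02 for Hoxb5. CPM lack the scaling between libraries that the fit applies, and Hoxb5 had means of 45.3 CPM in liver and 49.7 CPM in subcutaneous tissue. Separation in CPM can thus reflect that scaling in part. Without subcutaneous library 1, Hoxb2 and Hoxb6 were called. Counts over all genes in such fits are given further on, as a range over the fits. The Hoxd differences ran from -1.03 for Hoxd8 to -2.12 for Hoxd1 (adjusted p = 0.0848). Without subcutaneous library 1 the fitted differences of Hoxd8 and Hoxd10 changed sign, to 0.48 and 0.15, with libraries of the 2 sites overlapping, and those of Hoxd9 and Hoxd11 stayed below 0, at -0.66 and -0.34, and none of the 4 was called.

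**Figure D2:**
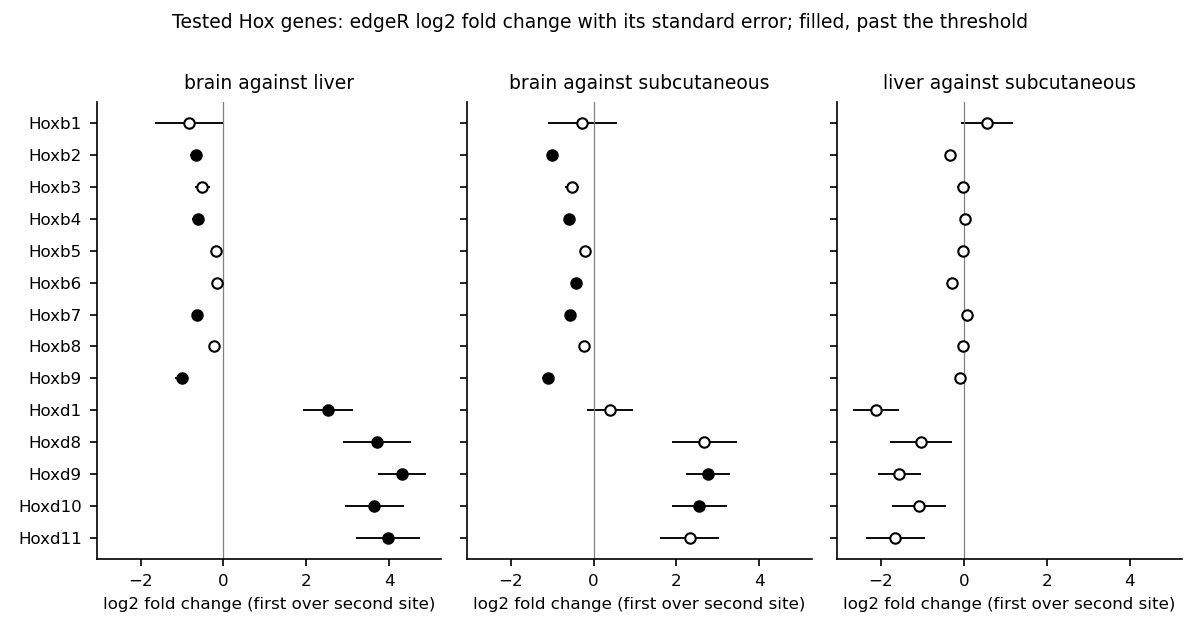
Log2 fold change of the 14 tested Hox genes in the 3 comparisons of sites, each point from the fit across all genes with a bar of 1 SE and filled where the adjusted p is below 0.05. In brain against liver the 5 Hoxd genes lie between 2.52 and 4.31 and the Hoxb genes between -1.01 and -0.15, and no gene is filled in liver against subcutaneous.

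Summed over a cluster, Hoxb stood at 420 and 411 CPM in brain, 553, 532 and 552 CPM in liver, and 570, 651 and 663 CPM in subcutaneous tissue. Hoxd stood at 92.9 and 98.1 CPM in brain, 7.77, 5.31 and 4.71 CPM in liver, and 36.0, 7.30 and 7.07 CPM in subcutaneous tissue. The subcutaneous Hoxd mean was thus 16.8 CPM with library 1 and 7.19 CPM without it. Position within a cluster can be read as the mean paralogue number of its UMIs. For Hoxb this was 6.51 and 6.41 in brain, 6.65, 6.53 and 6.61 in liver, and 6.51, 6.58 and 6.52 in subcutaneous tissue, with overlap of the sites. For Hoxd it was 9.09 to 9.46 over the 8 libraries. Over all Hox UMIs it was 7.03 and 6.997 in brain and 6.54 to 6.69 in the other 6 libraries. Within Hoxb, the posterior gene Hoxb9 held 18.9% and 17.2% of UMIs in brain, below the 23.3% to 28.0% of the other libraries. The overall code of brain tumour cells was thus shifted to higher numbers by the added Hoxd UMIs, while within Hoxb the share of the posterior gene was lower.

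Single cells were compared after thinning each to 3000 UMIs, which left out 48 to 180 shallower tumour cells per library. At that depth a Hoxd UMI was found in 20.2% (exact 95% interval 18.6% to 21.9%) and 21.8% (20.5% to 23.1%) of brain tumour cells. The share was 2.12%, 1.20% and 1.04% in liver and 7.86% (7.04% to 8.74%), 1.70% and 1.93% in subcutaneous tissue. Intervals cover counting error only. A Hoxb UMI was found in 54.7% and 52.8% of brain tumour cells, 76.7%, 75.05% and 75.3% in liver, and 74.4%, 81.0% and 81.0% in subcutaneous tissue. Brain thus had the most cells with Hoxd and the fewest with Hoxb, while liver and subcutaneous libraries overlapped for both. Without thinning, 89.3% to 97.997% of tumour cells held a UMI of some Hox gene, and a Hoxd UMI was in 29.6% and 36.5% of brain tumour cells. In cells below the tumour rule, thinned likewise and with median depths of 3585 to 5008 UMIs before thinning, a Hoxb UMI was found in 5.13% and 7.66% of brain cells. In the other libraries the figure was 21% to 41%, on 44 to 186 cells that were partly eGFP-positive.

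Cells with a Hoxd UMI held a Hoxb UMI less often than the other tumour cells of the same library, in all 8 libraries. In brain at 3000 UMIs, cells with UMIs of both made up 2.79% and 2.59% of tumour cells, where the product of the 2 shares gives 11.1% and 11.5%. In subcutaneous library 1 the values were 1.48% against 5.85%, and in the other 5 libraries 0.308% to 0.814% against 0.780% to 1.63%. Every library thus had fewer such cells than the product. At full depth, 26.9% and 28.2% of the Hoxd cells in brain held a Hoxb UMI, against 84.9% and 88.6% of the others. In subcutaneous library 1 the values were 39.7% against 94.2%. In the other 5 libraries 55.0% to 70.3% of the Hoxd cells held one, against 92.9% to 97.9%, so most Hoxd cells there had UMIs of both clusters. Among thinned brain cells with a Hoxd UMI, 13.8% (exact 95% interval 10.8% to 17.3%, 457 cells) and 11.9% (9.84% to 14.2%, 873 cells) held a Hoxb UMI, against 65.1% and 64.2% of the other tumour cells. In liver the values were 38.4%, 32.7% and 29.8% against 77.5%, 75.6% and 75.8%, on 86, 49 and 47 cells. In subcutaneous tissue they were 18.8%, 30.8% and 25.3% against 79.2%, 81.9% and 82.1%, on 313, 104 and 91 cells. With a UMI of at least 2 of Hoxd8 to Hoxd11 required, the share with a Hoxb UMI was 8.5% and 6.3% in brain and 5.0% to 15.4% elsewhere, on 13 to 106 cells outside brain. Before thinning, cells with a Hoxd8 to Hoxd11 UMI had a lower median depth than the others, for example 7688 against 8541 UMIs in brain library 1. Doublets were not removed, and a doublet of the 2 kinds of cell counts as holding both.

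**Figure D3:**
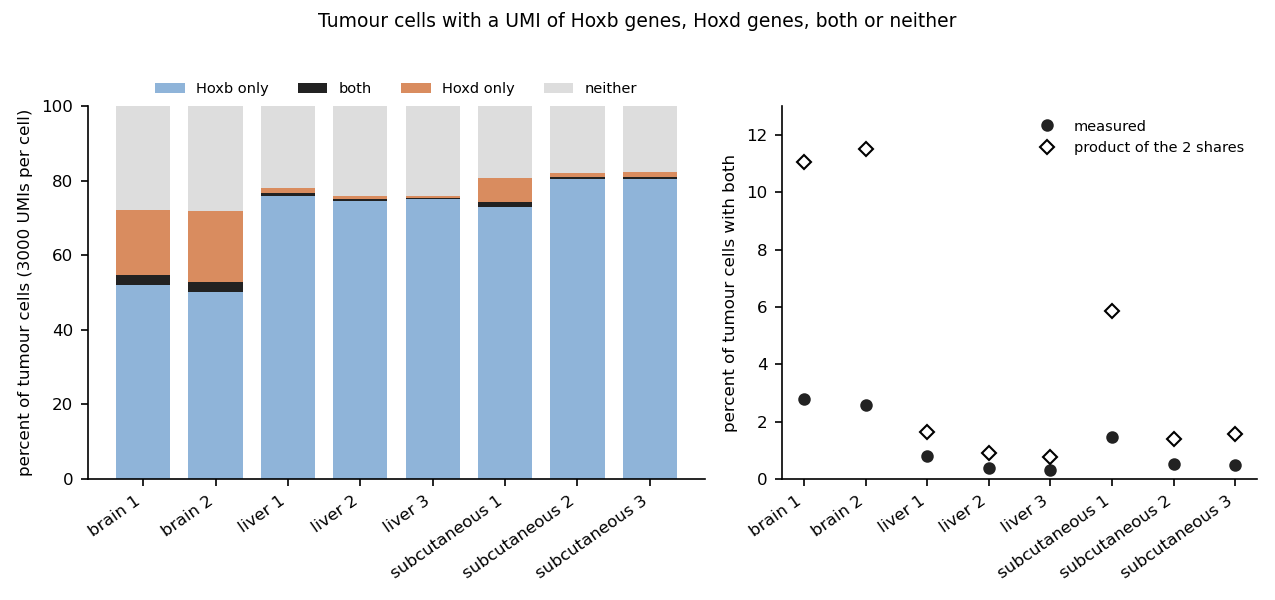
Left, percent of tumour cells, thinned to 3000 UMIs, with a UMI of Hoxb, of Hoxd, of both or of neither in each library. Right, the percent with both (filled circles) and the product of the 2 single shares (open diamonds): the measured share is below the product in all 8 libraries, at 2.79% against 11.1% in brain library 1.

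The lower level was seen for all 8 Hoxb genes from Hoxb2 to Hoxb9 in brain. Over Hoxb2 to Hoxb9 and 8 libraries, the mean level was lower in cells with a UMI of Hoxd8 to Hoxd11 in 62 of 64 gene and library pairs. Both exceptions were in liver library 3, Hoxb3 on 1 UMI and Hoxb6 on 15 UMIs in 46 cells. The share of all genes lower in these cells was not counted, and the 8 genes were measured in the same cells. In liver and in subcutaneous libraries 2 and 3 only 46 to 102 cells had such a Hoxd UMI. Some pairs there rest on 0 or 1 Hoxb UMI, such as Hoxb4 in subcutaneous library 3 and in liver library 2. In brain the ratio of the levels ran from 0.0492 to 0.199. The median ratio over libraries was 0.187 for Hoxb2, 0.195 for Hoxb4, 0.215 for Hoxb7, 0.275 for Hoxb9, 0.280 for Hoxb8, 0.399 for Hoxb5 and 0.432 for Hoxb6. For Hoxb3 it was 0.0246, with several libraries at 0. Within the Hoxd stretch the genes occurred together. In 94 of 96 combinations of library and ordered gene pair, cells with 1 of Hoxd8 to Hoxd11 held the other gene more often than cells without it. Each pair is counted in both orders, which always go the same way, so the 2 orders are not separate outcomes. The other 2 combinations were the 2 orders of 1 pair, Hoxd8 and Hoxd9 in liver library 2, with 0 cells holding both. In brain, 10.8% to 30.2% of cells with 1 gene held another, against 3.66% to 7.70% of cells without it. In subcutaneous library 1 the ranges were 16.7% to 35.6% against 1.46% to 2.80%. Hoxd1 was found more in the same cells. At full depth, 87.5% and 80.8% of its UMIs in brain fell in cells with a Hoxd8 to Hoxd11 UMI, which held 32.4% and 36.7% of all UMIs. In subcutaneous library 1 the share was 94.7%, against 12.3% of all UMIs. In the other 5 libraries it was 40.0% to 100%, on 1 to 23 Hoxd1 UMIs each, against 2.19% to 3.74% of all UMIs.

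Genes other than Hox that marked the Hoxd cells were ranked by the ratio of their mean thinned UMIs in cells with and without a UMI of Hoxd8 to Hoxd11, among 9396 genes with enough UMIs in every library. The 10 with the highest median ratio were Des (69.3), which encodes the intermediate filament desmin, Mfap2 (61.4), a microfibril protein, Tph1 (24.4), the first enzyme of serotonin synthesis outside neurons, Dnajc12 (21.1), Lnx1 (20.3), Prune2 (16.4), Lrpprc (13.97), Msx1 (12.8), a homeobox gene, Pcsk1 (11.8), a prohormone convertase, and Smap2 (11.6). Each was higher in 8 of 8 libraries, with lower ratios in brain than these medians: Des stood at 5.24 and 4.17 there and at up to 160.2 elsewhere, Mfap2 at 4.88 and 3.78, and Tph1 at 5.90 and 3.82. Des was found in 26.8% and 28.6% of the Hoxd cells in brain against 4.98% and 7.18% of the others. En1, a homeobox gene of the midbrain and hindbrain boundary, was found in 35.4% and 30.6% of Hoxd cells in brain against 5.48% and 6.29% of the others. In the other 6 libraries En1 was in 18.4% to 31.6% of Hoxd cells against 0.174% to 1.44%. The Hoxd cells also differed in the transcripts that define tumour cells here, with an eGFP level 1.39 to 2.23 times and a Mycl level 0.403 to 0.649 times that of the others.

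The UMIs of these 10 genes were also summed per thinned cell, a division added after these data were seen. Because the 10 genes were picked by the Hoxd status of these same cells, a lower Hoxb level in the higher classes is no separate result. Cells with 0 or 1 UMI of the 10 genes made up 65.3% and 55.3% of brain tumour cells, 82.8% in subcutaneous library 1 and 95.6% to 96.6% in the others. In brain library 1 the Hoxb level was 507 CPM in cells with 0 or 1 UMI, 294 with 2 or 3, 87.9 with 4 to 6 and 49.5 with 7 or more. In brain library 2 it was 542, 318, 128 and 63.2 CPM over the same classes. The highest class lay at or below 63.2 CPM in all 8 libraries, and the lowest class between 507 and 670 CPM. The course between them was not even: in liver libraries 2 and 3 and subcutaneous libraries 2 and 3 the class of 2 or 3 UMIs lay above that of 0 or 1, for example at 710 against 655 CPM in subcutaneous library 2. Liver libraries 2 and 3 had 19 and 16 cells with 4 to 6 UMIs.

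**Figure D4:**
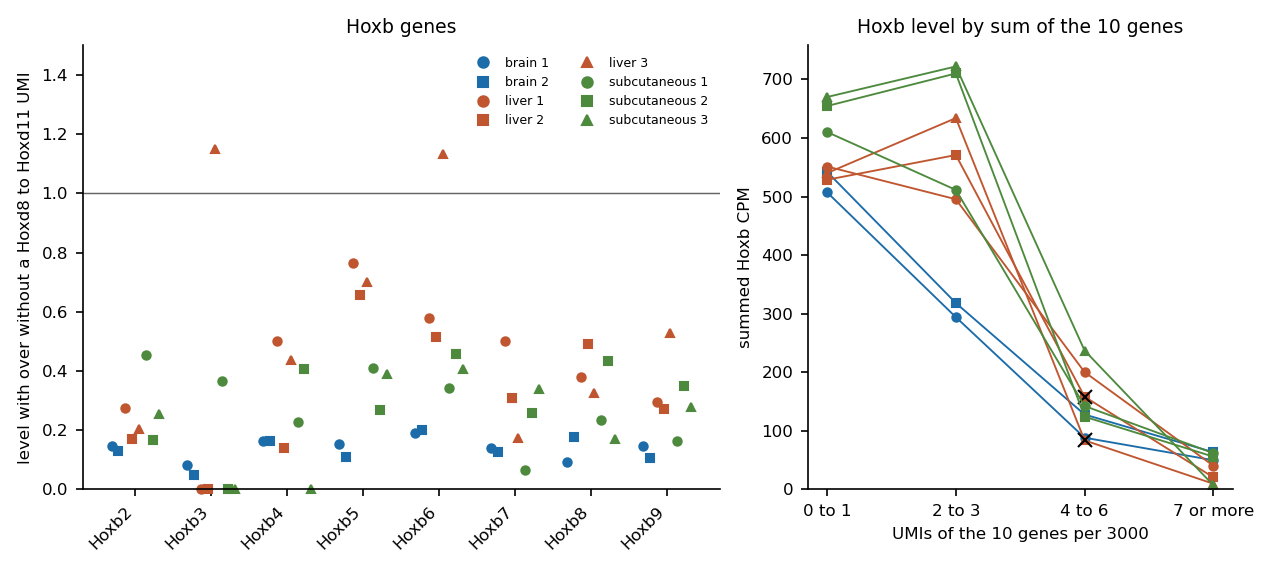
Left, ratio of the level of each Hoxb gene in thinned tumour cells with a Hoxd8 to Hoxd11 UMI to that in cells without, 1 point per library coloured by site, with 62 of 64 points below the line at 1. Right, summed Hoxb level in CPM by the UMIs of the 10 genes raised in Hoxd cells, 1 line per library, with a cross on classes of under 20 cells, falling to 63.2 CPM or less in the highest class.

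The lower Hoxb level of brain was then recomputed in cells without a Hoxd8 to Hoxd11 UMI, an alternative added after these data were seen. By this choice Hoxd8 to Hoxd11 have no UMI in these cells and could not be called. Against liver 1 Hox gene was called, Hoxb9, and against subcutaneous tissue 2 were, Hoxb2 and Hoxb9. The log2 differences against liver were -0.28 for Hoxb2 (edgeR adjusted p = 0.148), -0.22 for Hoxb7 (adjusted p = 0.220) and -0.20 for Hoxb4 (adjusted p = 0.309), each less than in all tumour cells. Those of Hoxb5, Hoxb6 and Hoxb8 changed sign to higher in brain, none of them called. Against subcutaneous tissue Hoxb5 and Hoxb8 did so too, with values given further on. In cells with 0 or 1 UMI of the 10 genes, Hoxb9 was lower by a log2 difference of -0.60 against liver and -0.72 against subcutaneous tissue. Of the 3 Hox genes called there against liver, Hoxb9 was lower in brain, and Hoxd9 and Hoxd10 were higher. Against subcutaneous tissue 4 were called, with Hoxb2 and Hoxb9 lower and Hoxd9 and Hoxd10 higher in brain. Counts over all genes in these fits are given further on. Choosing cells by a Hoxd UMI also selects on depth, and the part of depth in these values was not tested.

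Markers of other cell types moved with the site in the tumour sums. Macrophage and microglia markers summed to 428 and 63.8 CPM in brain tumour cells and 1.95 to 36.0 CPM elsewhere, oligodendrocyte markers to 211 and 145 CPM against 35.9 to 47.2, and astrocyte markers to 80.1 and 59.3 CPM against 17.3 to 41.9. In brain none of the 9 macrophage, 4 oligodendrocyte and 4 astrocyte markers was at 0 in tumour cells, while Mog was at 0 in the other 6 libraries. Their part in the Hox differences was not tested. The brain cells below the tumour rule held 23 and 10 Hoxd UMIs, or 4.90 and 6.86 CPM, against 92.9 and 98.1 CPM in tumour cells. For Hoxb their level was 27.5 and 65.8 CPM, against 420 and 411 CPM. In subcutaneous library 1 fibroblast and pericyte markers summed to 24.9 CPM in tumour cells, against 0.465 to 11.1 CPM in the others, and cells below the rule there held 9 Hoxd UMIs.

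Of the 9 TALE cofactors, 4 (44.4%) were called between brain and liver, where 21.8% of all tested genes were. The same share over all genes is 15.1% for brain against subcutaneous tissue and 2.83% for liver against subcutaneous tissue, which apply to the lists that follow as well. Meis1 rose by 2.18 on the log2 scale (adjusted p = 0.0311 in edgeR) and Meis3 by 0.88, while Pknox2 fell by 1.46 and Pbx2 by 0.51. Between brain and subcutaneous tissue 4 (44.4%) were called as well: Meis3 rose by 1.64 and Pknox2 fell by 1.37, Pbx3 by 0.79 and Meis2 by 0.60. Between liver and subcutaneous tissue 2 (22.2%) were called: Meis3 was higher by 0.75 and Meis2 lower by a log2 difference of -0.53. The median log2 difference of the list was -0.08, -0.21 and 0.09 in the 3 comparisons, beside 0.00, 0.00 and -0.01 over all tested genes.

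Of the 15 ParaHox and other positional homeobox genes, 5 were tested, of which 3 were called between brain and liver, 0 between brain and subcutaneous tissue and 1 between liver and subcutaneous tissue. En1, Gbx2 and Emx1 were higher in brain than in liver, by 4.59, 3.96 and 2.65 on the log2 scale (adjusted p = 0.0161, 0.00352 and 0.0318 in edgeR). En1 stood at 44.8 and 42.4 CPM in brain, 1.86, 1.76 and 1.36 CPM in liver, and 14.5, 2.03 and 1.75 CPM in subcutaneous tissue. As for Hoxd8 to Hoxd11, both brain libraries were highest and subcutaneous library 1 came next. Against subcutaneous tissue none of the 5 passed, En1 at 2.86 (adjusted p = 0.0694). Gbx2 was lower in liver than in subcutaneous tissue, by a log2 difference of -3.05. The medians of the 5 genes were 2.65, 0.90 and -1.74. Of the 20 tested genes that flank the Hox clusters, 2 (10%) were called in each brain comparison and none between liver and subcutaneous tissue. Hibadh on the Hoxa side was higher in brain by 0.52 against liver and 0.76 against subcutaneous tissue, Hnrnpa1 was lower against liver (-0.38) and Nfe2l1 against subcutaneous tissue (-0.45). The remaining flanking genes, those of the Hoxd side included, did not pass, and the medians of the list were -0.04, -0.08 and 0.01. Of the other transcripts of the clusters 2 were listed, Evx1 and Evx2, the latter beside Hoxd13, and both had 0 UMIs in tumour cells.

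Of 11 members of Polycomb complex 2, which sets a silencing mark at Hox clusters, 1 was called in each comparison, a share of 9.09%. Phf19 was higher in brain than in liver (1.29), Aebp2 lower in brain than in subcutaneous tissue (-0.42) and Mtf2 lower in liver than in subcutaneous tissue (-0.40). The catalytic subunits Ezh1 and Ezh2 did not pass. The medians were 0.23, 0.02 and -0.11. Of 12 members of Polycomb complex 1, 3 (25%) were called between brain and liver, 5 (41.7%) between brain and subcutaneous tissue and none between liver and subcutaneous tissue. Cbx7 was higher and Bmi1 and Phc2 lower in brain against liver, and against subcutaneous tissue Cbx7 was higher, with Bmi1, Cbx2 and Cbx8 among the lower genes, at log2 differences of -0.38, -0.37 and -0.84. The medians were -0.21, -0.18 and -0.02. Of the 10 Trithorax and H3K27 demethylase genes, which counter Polycomb, none passed in any comparison, with medians of -0.11, -0.11 and 0.06. Retinoic acid switches on Hox genes from the anterior end. Of 14 tested genes of its pathway, 2 (14.3%) were called between brain and liver, 4 (28.6%) between brain and subcutaneous tissue and none between liver and subcutaneous tissue. The receptor Rxra rose by 1.79 in brain against liver. Aldh1a3, a synthesis enzyme, rose by 1.47 against subcutaneous tissue, where the receptor Rara fell by 0.96 and the enzyme Rdh10 by 0.73. The medians were 0.46, 0.61 and -0.22.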

How the data were processed

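Each library came with its own matrix of UMI counts, deposited by the authors as whole numbers per gene and cell, made with Cell Ranger and STAR on mm10 per the submitters' processing notes, and in Cell Ranger's format with software version 3.0.0 per the file headers. The annotation is not given in the sources used here. Positions came from GENCODE M21, where 39 of 40 Hox identifiers matched. Cells needed 500 or more detected genes and no more than 10% mitochondrial UMIs, and a tumour cell had at least 0.2% eGFP and Mycl UMIs. No doublet caller was applied, and the share of doublets was not measured. UMI counts were summed per library over tumour cells and tested in R 4.3.3 with edgeR 4.0.16 (TMM, filterByExpr, robust quasi-likelihood fit, 1 mean per site over 8 libraries, 5 residual degrees of freedom, Benjamini-Hochberg over 13931 genes, threshold 0.05). The SE is the log2 fold change divided by the root of F. Genes under the filter held 0.0133% of UMIs. DESeq2 1.42.0 was an alternative, as were other filters, tumour rules, thinning, and leaving out each library. The summed, thinned and per-cell values were computed in Python 3.11.15 with numpy 2.4.6, pandas 2.3.3 and scipy 1.17.1, and exact intervals are Clopper-Pearson at 95%. The steps were tested on simulated data for 13691 genes with 200 changed. For brain against liver 72.0% of 2-fold and 94.6% of 4-fold changes were recovered. For brain against subcutaneous tissue the shares were 66.4% and 97.8%, with 3 false calls in each comparison. Every simulated gene had the same variation between libraries, below the common biological coefficient of variation of 17.9% in the data. These shares do not hold for genes that vary more, as the Hoxd genes did. Named were all Hox genes, in every library where the mean of a site reached 1 CPM or the gene was called, up to 4 genes per other list, direction and comparison, En1, and the 10 genes most raised in Hoxd cells. The members and lists were chosen with earlier results of these data known. Some genes of these lists are not reported here.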

Additional observations from a re-analysis of the deposited data

Results flagged for a closer look

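Hoxa and Hoxc UMIs, nearly absent from tumour cells, were present in cells below the tumour rule, which the comparisons of sites do not use. Together they gave 139 UMIs there against 15 in all tumour cells. Per library, the UMIs lay above the limit of 3 that a count of 0 allows in brain library 1 (7 UMIs), brain library 2 (7), subcutaneous library 1 (115) and subcutaneous library 2 (7). Hoxa7 gave 5 UMIs in brain library 1, 6 in brain library 2 and 16 in subcutaneous library 1. In subcutaneous library 1, Hoxa9 gave 6, Hoxa10 gave 12, Hoxc6 gave 9, Hoxc8 gave 21, Hoxc9 gave 25 and Hoxc10 gave 15, and 13 of the 20 Hoxa and Hoxc genes had a UMI. There, 110 of the 115 UMIs lay in 74 cells that held at least 3 fibroblast or pericyte markers. Of the 15 UMIs in tumour cells, 9 came from the same library.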

How the results depend on the processing

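Over 820 single-gene comparisons of Hox values with an alternative, 721 kept direction and side of the threshold, 54 lost a call, 16 gained one and 29 changed sign, none of them called on either side. Where a call or count moved, the cause was not tested. Leaving out each library in turn gave 1112 to 4557 called genes for brain against liver, 383 to 4754 for brain against subcutaneous tissue and 33 to 1024 for liver against subcutaneous tissue, and 2 to 9 and 0 to 2 called Hox genes in the last 2 comparisons. With only the 2 sites compared, brain against subcutaneous tissue gave 728 genes, 3 of them Hox (Hoxb2, Hoxb6 and Hoxb9, with Hoxd9 and Hoxd10 lost). DESeq2 called 1048 genes between liver and subcutaneous tissue, 2 of them Hox.

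Deviations from the site means correlated at -0.127 to 0.25 between same-numbered libraries and at -0.302 to 0.303 between libraries with other numbers. With so few libraries per site, this cannot settle whether the numbers pair the samples. A replicate block gave 1378 called genes for brain against subcutaneous tissue, in place of 2099, and 229 for liver against subcutaneous tissue, in place of 394. Under the block Hoxd1 against liver (edgeR adjusted p = 0.0513) and Hoxd10 against subcutaneous tissue (adjusted p = 0.0517) were lost and Hoxb3 against liver was gained (adjusted p = 0.0456).

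The next 2 alternatives were chosen after seeing the data. In cells without a Hoxd8 to Hoxd11 UMI, 1385 genes were called against liver, 1 of them Hox, and 921 for brain against subcutaneous tissue, 2 of them Hox. Hoxd8 to Hoxd11 could not be called there. In cells low in the 10 genes, 1200 and 855 genes were called, with 3 and 4 Hox genes. Hoxd9 and Hoxd10, higher in brain, were among them in both comparisons. Brain against liver then turned to 0.20 and 0.17 for Hoxb8, 0.24 and 0.18 for Hoxb6, and 0.22 and 0.18 for Hoxb5. Brain against subcutaneous tissue turned to 0.16 and 0.14 for Hoxb8 and 0.17 and 0.14 for Hoxb5, and liver against subcutaneous tissue to -0.0018 and -0.0034 for Hoxb4.

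The other sign changes were these. Over the fits that left out 1 library, Hoxb1 ran from -3.03 to 0.24 against liver and from -2.48 to 0.79 for brain against subcutaneous tissue, and Hoxd1 from -0.13 to 0.75 in the latter, the upper Hoxb1 and lower Hoxd1 values without brain library 2. For liver against subcutaneous tissue such fits ran from -0.044 to 0.024 for Hoxb8 (0.022 without liver library 2), from -0.052 to 0.0054 for Hoxb5 and from -0.13 to 0.14 for Hoxb3 (both upper values without liver library 3). Without subcutaneous library 1, Hoxb3 stood at 0.00029, Hoxd10 at 0.15 (lowest -1.49), Hoxd8 at 0.48 (lowest -1.45), Hoxb7 at -0.027 (highest 0.15) and Hoxb4 at -0.072 (highest 0.087). With a tumour rule of 0.5%, Hoxb8 stood at 0.050, Hoxb5 at 0.024 and Hoxb3 at 0.036. With sums thinned to the lowest total, Hoxd1 for brain against subcutaneous tissue stood at -0.016 and Hoxb8 for liver against subcutaneous tissue at 0.013.

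Depth sets the shares of cells. At 2000 UMIs, 5000 UMIs and without thinning, the mean Hoxb share was 44.0%, 62.9% and 67.1% in brain, 62.5%, 89.5% and 93.3% in liver, and 66.4%, 89.6% and 92.8% in subcutaneous tissue. The Hoxd share was 15.4%, 28.9% and 33.0% in brain, and in liver 1.92% at 5000 UMIs and 2.90% without thinning. With a tumour rule of 0.5%, the Hoxb share was 76.8% in liver, and brain had a Hoxb share of 50.8%, a Hoxd share of 23.2%, and summed levels of 384 CPM for Hoxb and 106 CPM for Hoxd. Genes of the other lists were not recomputed singly, and 26 Hox entries had too few UMIs for a test.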
